A study of Mus musculus with 16 samples.

Results

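Hearts of mice with the R502W variant of cardiac myosin-binding protein C were compared with wild-type (WT) hearts at 18 weeks of age, across all 14109 genes of the deposited table. Each genotype had 4 libraries at this age, 8 of the 16 in the series, and they were chosen by genotype and age as labelled. The other 8 libraries, 4 R502W and 4 WT hearts at 3 weeks, entered the fit for a shared estimate of the spread and for the test of whether a genotype effect differed between the ages. RNA of hearts was enriched for polyA and sequenced with strand kept. How the hearts were dissected is not given in the sources used here. The labels name R502W as the 1 allele that sets the groups apart and no treatment besides age. The names of the R502W libraries begin with KI, which is not spelled out. The labels do not give the zygosity of the allele, how it was introduced, the strain, sex or litter. Whether the hearts of a group were separate animals is not given either. The p-values therefore rest on the spread among these libraries alone, which may be technical. Levels are CPM (reads scaled to a size of each library that was adjusted by a factor per library). Differences are R502W minus WT on the scale of log2(CPM + 1). Fold changes are on that scale, where the change of a weakly expressed gene is understated. Unless overlap is stated, genes given library by library did not overlap between the genotypes. A gene was called at a Benjamini-Hochberg adjusted p of limma under 0.05.

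Cardiac myosin-binding protein C sits in regular stripes along the thick filament, where it binds myosin heads and actin and restrains the formation of cross-bridges. Variants of its gene are a common cause of hypertrophic cardiomyopathy, in which the ventricular wall thickens, contraction is often excessive, relaxation is impaired and the tissue becomes fibrotic and prone to arrhythmia. A loaded or diseased rodent ventricle is known for returning to transcripts of fetal muscle, for making stretch-sensing proteins of the Z-disc and natriuretic peptides, and for lowering genes of fat oxidation and repolarisation.

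Mybpc3, which encodes cardiac myosin-binding protein C itself (GRCm38, chromosome 2, 91118144 to 91136516, plus strand), was transcribed in every library. Its level in the WT hearts was 3080.3, 2735, 2886 and 3244, and in the R502W hearts 3544, 3765, 4067 and 4098. Each R502W library lay above each WT library, and the rise was 1.30-fold (log2 0.37, SE 0.07, limma adjusted p = 0.00217). The table carries sums over a gene, so the variant base was not read and the label could not be checked against it.

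The 8 libraries held 19273683 to 23857089 reads. Ddx3y, a gene of the Y chromosome, was at 100.4 to 112.6 in WT and at 89.3 to 110.1 in R502W, so each library held RNA of males. The first principal component of these libraries held 33.3% of the variance and separated the genotypes, and the second held 18.6%. Of 13 ventricular cardiomyocyte markers all were measured, with a summed level of 60807 to 70757 in WT and 59937 to 67024 in R502W. Only 2 of 14 skeletal muscle markers were measured at all, with a summed level of 0.967 to 2.81 over the 8 libraries. Atrial markers differed most between libraries of the same genotype: their summed level was 732, 2442, 173 and 125 in WT samples 1 to 4 and 3039, 1308, 1688 and 2830 in R502W samples 1 to 4. They also ran with genotype: the median difference of the 9 measured markers was 1.85, with 8 above 0. Of the 9, 1 was called higher (11.1%, against 10.7% of all genes). Without WT sample 2 at 18 weeks and R502W sample 1 at 3 weeks, 6 were called higher. R502W sample 4 had the highest level of its group for many of the genes below, among them Myh7, Acta1, Ankrd1 and Cilp. In bulk tissue, fewer cells of a type and less RNA per cell cannot be told apart.

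The limma test called 1509 genes, or 10.7% of those tested. Of these, 790 (5.6%) were higher and 719 (5.1%) lower in R502W hearts. Counts of called genes in the lists below stand beside these shares of all genes. At least 2-fold differences were found for 75 of the higher and 15 of the lower genes, and at least 1.5-fold for 250 and 132. The libraries of the genotypes did not overlap for 1210 of the called genes, against 13.7% of all genes. Over all genes, the R502W libraries all lay above the WT libraries for 7.3% and all below for 6.41%. The median difference over all genes was 0.0049. The number of called genes was 934 without R502W sample 4 and 1011 without WT sample 1, where 447 were lower. It was 1238 with the level of atrial markers as a covariate, which is described below.

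The largest rise was that of Myh7, which encodes slow beta-myosin, the heavy chain of the ventricle before birth (chromosome 14, 54970684 to 54994626, minus strand). It stood at 64.3, 88.8, 136 and 239 in the WT hearts and at 1870.5, 2212, 1817 and 4075 in the R502W hearts. The lowest R502W library exceeded the highest WT library, and the difference was 4.32 (SE 0.41, limma adjusted p = 1.35e-06), or 19.95-fold. Acta1, the alpha-actin of skeletal muscle that the fetal heart also uses (chromosome 8, 123891769 to 123894751, minus strand), was at 97.5, 187, 182 and 136 in WT and at 1745, 1314, 1563 and 2460.2 in R502W. It rose 11.7-fold (log2 3.55, SE 0.21, limma adjusted p = 8.19e-09), again without overlap. Nppb, which encodes B-type natriuretic peptide (chromosome 4, 147985788 to 147987205, plus strand), was at 33.4, 97.8, 110.2 and 74.3 in WT and at 299, 274, 251 and 389 in R502W. Ankrd1, an ankyrin-repeat protein that binds titin at the I-band and moves to the nucleus under strain (chromosome 19, 36111961 to 36120099, minus strand), was at 663, 738, 908 and 965 in WT and at 2376, 2578, 2682 and 3447 in R502W. These 2 genes rose 4.11-fold and 3.39-fold (limma adjusted p = 0.000236 and 1.70e-07), with no overlap.

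The promoters of these 4 genes are shown because the largest rises were read for 2 elements known from cardiac muscle promoters. The M-CAT element, to which TEAD factors bind, was searched as CATTCC on both strands (GGAATG is its reverse), and the CArG box, to which serum response factor binds, by its name as CC, 6 bases of A or T, and GG. Each sequence below is the 250 bases before a RefSeq start site of GRCm38.p6, on the strand of the gene, with the matches in capitals.
Acta1 (chr8:123894776-123895025, minus strand): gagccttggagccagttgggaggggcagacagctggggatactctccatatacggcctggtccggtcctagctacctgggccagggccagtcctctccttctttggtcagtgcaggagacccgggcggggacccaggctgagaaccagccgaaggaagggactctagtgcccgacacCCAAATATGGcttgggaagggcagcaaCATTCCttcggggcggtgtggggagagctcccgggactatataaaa
Ankrd1 (chr19:36119845-36120094, minus strand): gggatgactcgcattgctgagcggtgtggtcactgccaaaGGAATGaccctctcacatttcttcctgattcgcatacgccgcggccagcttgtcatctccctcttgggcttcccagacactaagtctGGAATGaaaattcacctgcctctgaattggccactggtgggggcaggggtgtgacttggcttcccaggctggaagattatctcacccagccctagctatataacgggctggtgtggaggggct
Nppb (chr4:147985650-147985899, plus strand): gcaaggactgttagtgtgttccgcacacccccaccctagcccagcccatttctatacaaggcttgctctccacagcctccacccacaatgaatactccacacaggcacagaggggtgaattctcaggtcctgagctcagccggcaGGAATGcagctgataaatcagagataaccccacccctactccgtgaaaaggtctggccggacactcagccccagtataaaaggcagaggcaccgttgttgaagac
Myh7 (chr14:54994627-54994876, minus strand): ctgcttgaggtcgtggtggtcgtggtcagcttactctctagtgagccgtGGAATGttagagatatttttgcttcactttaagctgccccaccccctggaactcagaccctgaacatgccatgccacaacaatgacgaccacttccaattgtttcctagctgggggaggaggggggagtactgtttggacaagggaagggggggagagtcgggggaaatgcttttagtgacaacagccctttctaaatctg
Acta1 has a CArG box followed by an M-CAT element, Ankrd1 has 2 M-CAT elements, and Nppb and Myh7 have 1 each. The window of a second listed Myh7 start holds neither. The 20 largest rises and the 20 largest falls are those of called genes more abundant than the median gene, with an established symbol and genotypes that did not overlap. Of the rises, 15 had a RefSeq window, and 8 of these held CATTCC in the 300 bases around a start (9 of 19 windows, or 47.4%). Of the falls, 15 had a window and 4 held it (5 of 19 windows, or 26.3%), and 14.7% of all 32851 windows did. The CArG box was in 1 of the 19 windows of the rises, that of Acta1, in none of the falls and in 1.63% of all windows. The motif TNAAGGTCA, bound by oestrogen-related receptors, was in none of either set and in 1.28% of all. These are matches of letters, not sites shown to be bound, and their part in the changes was not tested.

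**Figure D1:**
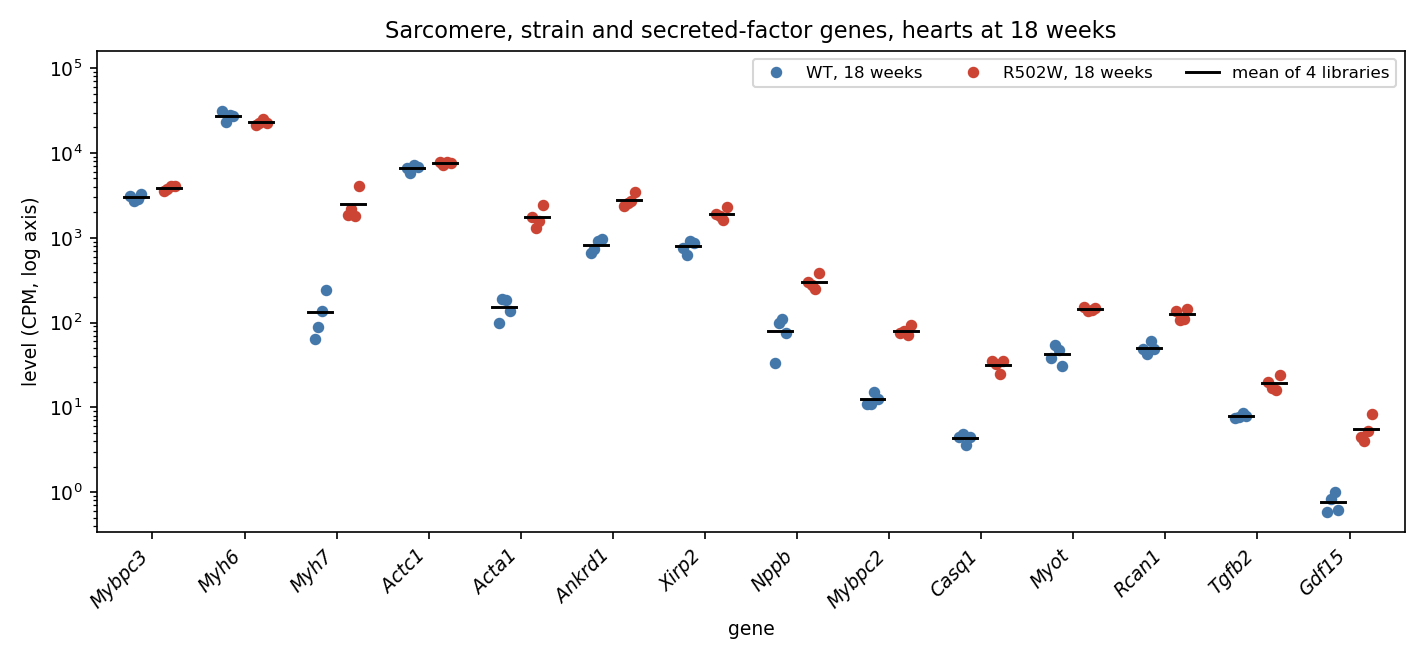
Levels in CPM (log axis) of 14 genes in the 4 WT and 4 R502W hearts at 18 weeks, each point 1 library and each bar the mean of 4. Myh6 and Actc1, the adult partners of Myh7 and Acta1, overlap between the genotypes, while the R502W points of Myh7 (1817 to 4075) and Acta1 (1314 to 2460) lie above all WT points.

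Among the 7 measured myosin heavy chains 2 rose and none fell, against 5.6% and 5.1% of all genes. Besides Myh7, the non-muscle myosin Myh10 rose by 0.40. Myh6, the fast alpha-myosin heavy chain of the adult mouse ventricle, was at 31052, 23099, 28210.4 and 27555 in WT and at 21624, 22813, 25471 and 22516 in R502W. WT sample 2 overlapped the R502W range, and the difference of -0.24 did not pass the test (limma adjusted p = 0.221), whereas it did under robust variance moderation, edgeR and DESeq2 (adjusted p = 0.0389, 0.0482 and 0.00755). Per kilobase of exon, Myh7 made up 0.161, 0.299, 0.376 and 0.673% of the sum of Myh6 and Myh7 in WT samples 1 to 4 and 6.33, 7.04, 5.28 and 12.4% in R502W samples 1 to 4. The mean share was 0.377% ± 0.216 in WT and 7.75% ± 3.17 in R502W (SD, n = 4 each; exact permutation test, two-sided, p = 0.0286, adjusted over 3 shares p = 0.0429). Without R502W sample 4 the mean share in R502W was 6.21%.

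Acta1 made up 1.53, 3.32, 2.58 and 2.08% of the sum of Acta1 and the cardiac alpha-actin Actc1 in the WT hearts and 18.8, 16.3, 17.3 and 25.5% in the R502W hearts. The means were 2.38% ± 0.763 and 19.5% ± 4.15 (SD, n = 4 each; exact permutation test, two-sided, p = 0.0286, adjusted p = 0.0429), and 0.0286 is the smallest p that 4 against 4 libraries can give. Actc1 itself, at 5736 to 7225 in WT and 7128 to 7917 in R502W, did not pass the test (log2 0.22, limma adjusted p = 0.105), but did with edgeR, DESeq2, a robust spread or an atrial covariate. For troponin I, the inhibitory subunit of the thin filament, the fetal slow form Tnni1 held 0.00616% ± 0.00517 in WT and 0.00895% ± 0.00321 in R502W of its sum with the adult form Tnni3 (SD, n = 4 each; exact permutation p = 0.429). That rests on 5, 12, 1 and 3 reads of Tnni1 in the WT libraries and 7, 10, 4 and 6 in the R502W libraries, which overlapped, and so few reads leave a small change of Tnni1 undetectable at this depth. Reads of such near-identical pairs can be split between them by the authors' counting, and the shares carry that uncertainty.

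**Figure D2:**
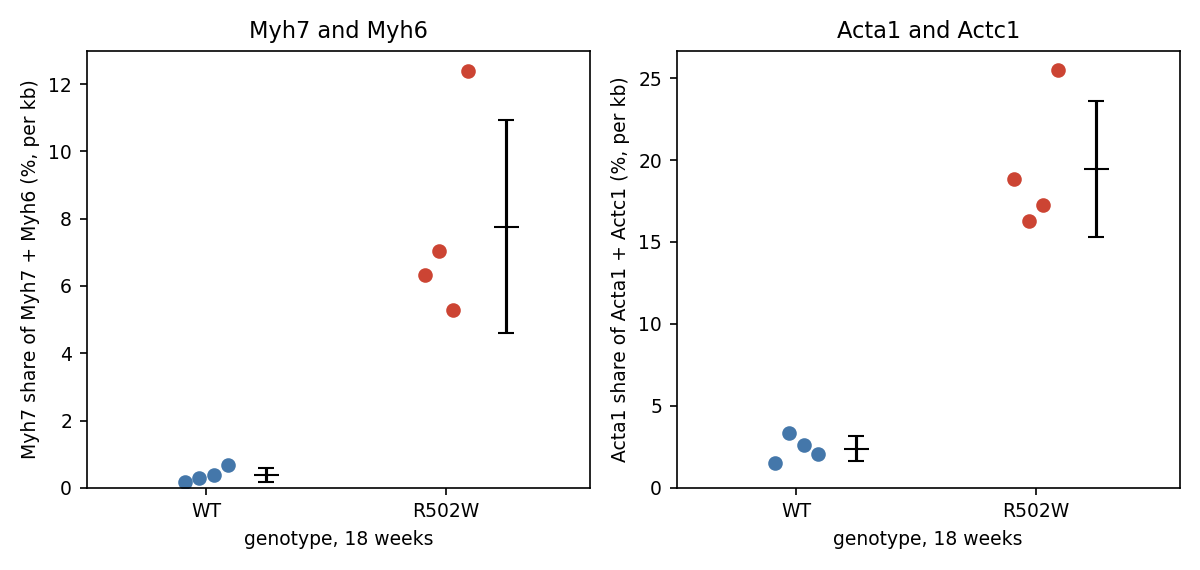
Share, per kilobase of exon, of Myh7 in the sum of Myh7 and Myh6 (left) and of Acta1 in the sum of Acta1 and Actc1 (right), in percent, for each of the 4 WT and 4 R502W hearts at 18 weeks. Bars beside the points give the mean and the SD (n = 4). R502W sample 4, at 12.4% and 25.5%, is the highest of its group in both panels.

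Of 13 myosin light chains and their kinases 1 rose and 2 fell, and 4 rose without the 2 libraries that stood apart in atrial markers (WT sample 2 at 18 weeks and R502W sample 1 at 3 weeks). The share called was 23.1%, against 10.7% of all genes. The ventricular light chains Myl2 (3649 to 4819.7 in WT, 3826 to 4592 in R502W) and Myl3 (3078 to 3602 and 3189 to 3877) overlapped between the genotypes, with differences of 0.04 and 0.07. The regulatory light chain of non-muscle myosin, Myl12a, was at 370.5, 385, 424 and 425 in WT and at 675, 666, 692 and 697 in R502W. It rose by 0.77 (SE 0.07, limma adjusted p = 7.35e-07), with the groups far apart for a fold of 1.70. Its gene overlaps that of Myom1 on the opposite strand, as Myh7 overlaps the antisense RNA Mhrt. Strand was kept in the libraries, but the strand setting of the counting is not given in the sources used here, so reads of such partners cannot be told apart. The 2 falls were those of kinases. Mylk3, the cardiac myosin light chain kinase, fell by 0.30 (limma adjusted p = 0.00348). Mylk4, a related kinase of striated muscle (chromosome 13, 32700834 to 32783954, minus strand), was at 341, 377, 298 and 278 in WT and at 151, 216, 213 and 129.8 in R502W. Its fall of 0.89 (limma adjusted p = 0.000399) was among the 20 largest of genes above the median level.

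In the thin filament 5 of 20 measured genes rose and 1 fell, with a median of 0.10 against 0.0049 over all genes. After Acta1 the rises were those of the tropomyosin Tpm2 (1.07), the actin nucleator Lmod2 (0.54), cardiac troponin C, Tnnc1 (0.33), and the actin-severing cofilin Cfl2 (0.29). Tpm2 was at 14.5, 27.2, 10.5 and 8.19 in WT and at 31.5, 23.5, 27.3 and 38.4 in R502W, where WT sample 2 overlapped the R502W range, and its call was lost without R502W sample 4 and with a robust spread (limma adjusted p up to 0.0549). Nebl, a Z-disc anchor of the thin filament, fell by 0.30. The adult components Tnnt2 (-0.16), Tnni3 (-0.22) and Tpm1 (-0.07) did not pass (limma adjusted p = 0.164, 0.0742 and 0.641). Tnni3 did pass under quantile normalization, with a robust spread and with DESeq2, and Tnnt2 with DESeq2.

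The thick filament and M-band list had 6 of 15 genes higher, none lower and a median of 0.20. The rises numbered 4 without R502W sample 3 or 4 or WT sample 1 or 2, and 5 without R502W sample 1 or 2. In all 30 alternatives 3 of them held. Mybpc2, the fast skeletal paralogue of Mybpc3 (chromosome 7, 44501699 to 44524656, minus strand), had a level of 10.9, 11.1, 15.0 and 12.6 in WT and of 75.3, 79.8, 71.2 and 92.9 in R502W. It rose 6.05-fold (log2 2.60, SE 0.13, limma adjusted p = 9.82e-10), which was the smallest adjusted p of the comparison. The M-band proteins Myom1 and Myom3, which crosslink thick filaments, rose by 0.33 and 0.80. The call of Myom1 was lost under quantile normalization (limma adjusted p = 0.0984). Myom3 stood at 1.91 to 3.51 in WT and 4.53 to 6.83 in R502W.

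Among Z-disc and strain-sensing genes 15 of 28 measured members rose, 1 fell and 12 did not pass, with a median of 0.31. Their share of calls was the largest among the 35 functional lists. The lists were written with earlier results of these data known, so this rank is a description and not a test. All 16 calls of the Z-disc list held in each of the 30 alternative analyses. Myot, a crosslinker of actin at the Z-disc (chromosome 18, 44334074 to 44355724, plus strand), was at 37.9, 54.5, 47.9 and 30.7 in WT and at 153, 136, 142 and 150.3 in R502W. Synpo2l, an actin-bundling Z-disc protein, was at 111, 92.3, 116 and 147 in WT and at 339, 316, 307 and 397 in R502W. Their rises were 3.42-fold and 2.92-fold (limma adjusted p = 1.43e-07 and 7.03e-08), with no overlap. Ankrd23, a relative of Ankrd1 that also binds titin, rose 3.05-fold, with levels of 182 to 269.7 in WT and 585 to 794 in R502W. Xirp2, which binds and stabilises actin, rose 2.40-fold, with levels of 631 to 909 in WT and 1612 to 2289 in R502W, and its relative Xirp1 rose by 0.46.

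Smaller rises ran through the structural proteins of the same list. Nrap, which anchors terminal actin filaments, rose by 0.92, the filamin Flnc by 0.63, the intermediate filament desmin, Des, by 0.47, and the LIM protein Csrp3 by 0.43. Fhl1 (0.54), Pdlim1 (0.52), the caveolar protein Cavin4 (0.39), the small heat-shock protein Cryab (0.30) and alpha-actinin, Actn2 (0.29), rose as well. Palld, a scaffold of actin bundles, fell by 0.30 and was the 1 member that fell. Tnfrsf12a, the receptor of the cytokine TWEAK and not of this list, was at 20.2, 25.3, 33.0 and 26.7 in WT and at 80.9, 71.4, 75.8 and 84.1 in R502W, a 2.93-fold rise (limma adjusted p = 6.29e-06).

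At the intercalated disc, where neighbouring cardiomyocytes join, 3 of 15 genes rose and 3 fell. Enah, an actin elongation factor, rose 1.96-fold, with levels of 128 to 145 in WT and 242 to 310.4 in R502W. The desmosomal cadherin Dsg2 was at 144, 121, 127 and 130.3 in WT and at 97.5, 97.2, 87.0 and 76.3 in R502W. It fell by 0.54 (limma adjusted p = 0.000304) while the desmosomal plaque protein Pkp2 rose by 0.31 (limma adjusted p = 0.00890), so members of the same junction moved in opposite directions. Beta-catenin, Ctnnb1, rose by 0.19, a call lost when only the 8 libraries at 18 weeks were fitted (limma adjusted p = 0.0543). Without WT sample 1, 1 of the 3 lower genes was still called. Of 21 costamere genes 2 rose, the fibronectin receptor subunit Itga5 (0.60) and the laminin receptor subunit Itga6 (0.36), and 1 rose without R502W sample 4. The share of costamere genes called was 9.52%, against 10.7% of all genes.

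Among calcium-handling genes 3 of 33 rose and 3 fell, or 2 and 6 without WT sample 2. The share called was 18.2%, against 10.7% of all genes. Casq1, the calsequestrin of fast skeletal muscle (chromosome 1, 172209894 to 172219868, minus strand), was at 4.46, 4.81, 3.62 and 4.45 in WT and at 35.2, 32.1, 24.5 and 35.5 in R502W. It rose 6.11-fold (log2 2.61, limma adjusted p = 1.66e-08), with no overlap. Ryr2, the calcium release channel of the cardiac sarcoplasmic reticulum, was at 2213, 1991, 2106 and 2038 in WT and at 1668, 1707, 1674 and 1562 in R502W, and fell by 0.34 (limma adjusted p = 0.00448). The calcium pump Atp2a2 (-0.27) and its inhibitor phospholamban, Pln (-0.27), did not pass (limma adjusted p = 0.0735 and 0.0573). Both passed with edgeR, DESeq2 or a robust spread and without WT sample 2, Pln also without R502W sample 2 and Atp2a2 also without a mean-variance trend. Camk2a, a calmodulin-dependent kinase, fell by 0.32, and Asph, whose locus encodes junctin, rose by 0.26.

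Of 33 sodium, potassium and pacemaker channel genes 8 fell and 1 rose, with a median of -0.15. The falls included subunits of several repolarising currents. Kcnj12 carries part of the inward rectifier current and was at 24.2, 22.0, 20.3 and 19.7 in WT and at 14.0, 14.3, 14.1 and 15.6 in R502W, a fall of 0.54 (limma adjusted p = 0.000530). Kcnh2 of the rapid delayed rectifier fell by 0.56, Kcnd2 of the transient outward current by 0.62, and the modifying subunit Kcnv2 by 0.63. Abcc9, the sulphonylurea receptor of ATP-sensitive channels, fell by 0.54. Abcc9 is also a marker of pericytes, whose 13 markers had a summed level of 1173 to 1479 in WT and 1041 to 1259 in R502W, and the part of these cells was not tested. The 1 rise was Kcnc1, a fast delayed rectifier of neurons, at 1.27 to 1.76 in WT and 4.37 to 6.35 in R502W. A second gene of the list rose without WT sample 4.

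In the adrenergic, natriuretic, angiotensin and endothelin list 5 of 31 genes rose and 7 fell. The natriuretic arm split between hormone and processing enzyme. Nppb rose, as above, while Corin, the cardiac protease that cleaves the natriuretic pro-peptides, was at 309.8, 307, 297 and 296 in WT and at 203, 213, 205 and 176 in R502W. Corin fell by 0.60 (SE 0.07, limma adjusted p = 1.25e-05), with no overlap. Nppa, the atrial natriuretic peptide gene, was at 356, 1373, 104 and 64.7 in WT samples 1 to 4 and at 1867, 935, 1125 and 1947 in R502W samples 1 to 4. It is a member of the atrial marker list whose sums are given above, and WT sample 2 overlapped the R502W range. The difference of 2.54 (limma adjusted p = 0.0133) lost its call with edgeR, DESeq2, a robust spread or only the 8 libraries (adjusted p up to 0.120). The atrial light chain Myl7, at 67.7, 263, 15.6 and 9.43 in WT and at 309.8, 66.7, 172 and 272 in R502W with overlap, did not pass (log2 2.08, limma adjusted p = 0.315), but passed (2.96, adjusted p = 0.00503) without the pair of libraries that stood apart in atrial markers, WT sample 2 at 18 weeks and R502W sample 1 at 3 weeks. For Nppb, the mean of log2 levels of 4 other atrial genes (Myl7, Myl4, Sln and Mybphl) as a covariate left the call in place. In cyclic AMP signalling, the adenylyl cyclase Adcy6 fell by 0.35 and the phosphodiesterases Pde4d and Pde3a by 0.35 and 0.26, while the receptor kinase Grk5 rose by 0.41 and the angiotensin-converting enzyme Ace by 0.37. Without R502W sample 4 or without WT sample 1, 4 genes of this list fell.

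Of 30 genes of calcineurin, CaMK and cardiac transcription factors 4 rose and 1 fell. The share called was 16.7%, against 10.7% of all genes. Rcan1, a calcineurin inhibitor that calcineurin itself induces, was at 49.2, 42.8, 61.2 and 48.1 in WT and at 136, 106, 110.1 and 145 in R502W, a 2.44-fold rise (limma adjusted p = 1.01e-06). Abra, which binds actin and activates serum response factor (chromosome 15, 41864076 to 41869720, minus strand), was at 34.1, 45.8, 48.7 and 36.3 in WT and at 164, 99.8, 167 and 153 in R502W and rose 3.45-fold (limma adjusted p = 2.17e-07). These 2 calls held in all 30 alternatives, and the list had 2 rises without R502W sample 1, 2 or 4 or without WT sample 1 or 2. Its 1 lower member, the zinc-finger factor Klf15 (-0.32), lost its call in 13 of the 30 alternatives, among them those without R502W sample 1, 2 or 4 or WT sample 1 or 4. Egr1, an immediate early transcription factor outside the list, was at 4.46, 3.77, 8.21 and 17.4 in WT and at 18.9, 23.9, 29.1 and 63.0 in R502W. The lowest R502W library exceeded the highest WT library by little, and the spread within each genotype was wide (log2 1.94, SE 0.39, limma adjusted p = 0.00314).

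Targets and factors of the Hippo pathway, in which YAP and TEAD act, had 4 of 22 genes higher and 1 lower. They were Ankrd1, the secreted matricellular proteins Ccn1 and Ccn2, and the TEAD cofactor Vgll2. Ccn1 was at 21.4, 26.0, 41.7 and 33.6 in WT and at 70.2, 68.8, 72.4 and 104 in R502W, and rose 2.56-fold (limma adjusted p = 0.000107). Ccn2 was at 71.0, 123, 49.4 and 49.1 in WT and at 129.6, 108, 125 and 181 in R502W. WT sample 2, with the highest atrial markers of its group, overlapped the R502W range of Ccn2, and the rise was 0.97 (limma adjusted p = 0.00554). Vgll2 had 0, 2, 4 and 0 reads in the WT libraries and 40, 25, 27 and 91 in the R502W libraries, and its levels were 0.0249 to 0.210 and 1.30 to 3.73. The kinase Lats1, which restrains YAP, was the 1 member lower (-0.23), and no member was lower when any library of 18 weeks other than R502W sample 3 was left out. The share of this list called was 22.7%, against 10.7% of all genes.

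In the TGF-beta, BMP and activin list 9 of 43 genes rose and 2 fell, and the ligands were among the rises. The list had 6 rises without R502W sample 4 or with the atrial covariate, and 10 without WT sample 2. It had 3 falls without WT sample 4 or with that covariate. Tgfb2 was at 7.47, 7.76, 8.54 and 7.94 in WT and at 19.7, 17.0, 16.1 and 24.0 in R502W, a 2.24-fold rise (SE 0.11 on the log2 scale, limma adjusted p = 1.68e-06). Tgfb3 rose by 0.45. Gdf15, a stress-induced ligand whose receptor lies in the brainstem, rose from low levels. It had 11, 17, 21 and 12 reads in the WT libraries and 93, 79, 94 and 204 in the R502W libraries, or 0.586 to 1.01 against 4.05 to 8.34 (log2 1.85, limma adjusted p = 3.13e-06). Of the receptors and carriers, the co-receptor Tgfbr3 was at 70.5, 67.9, 53.2 and 55.4 in WT and at 39.1, 38.8, 37.8 and 35.1 in R502W and fell by 0.69 (limma adjusted p = 8.58e-06). The latency protein Ltbp1 fell by 0.39. The pseudoreceptor Bambi (0.85) and the activin antagonist Fstl3 (0.82), which both hold the pathway back, rose.

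Growth factor and cytokine genes moved both ways, with 8 of 42 higher and 7 lower. Among the ligands, Hbegf, a membrane-bound activator of the EGF receptor, was at 14.0, 15.9, 12.3 and 12.8 in WT and at 29.3, 23.6, 29.2 and 29.8 in R502W and rose 1.97-fold (limma adjusted p = 8.79e-06). Vegfd, a lymphatic and vascular growth factor, rose 2.20-fold, with levels of 1.61 to 2.64 in WT and 5.12 to 6.81 in R502W. Fgf6, a muscle fibroblast growth factor, had 14, 17, 12 and 15 reads in WT and 157, 147, 175 and 225 in R502W, and rose by 2.45 (limma adjusted p = 1.25e-07). Other FGF genes were lower. Fgf2, which overlaps Nudt6 on the opposite strand, was at 31.6, 23.2, 23.5 and 24.7 in WT and at 14.5, 17.1, 13.8 and 12.7 in R502W and fell by 0.78, and Fgf1 fell by 0.42, with the intracellular FGF homologue Fgf13 at -0.45. Of the receptors, the cytokine receptor subunits Lifr and Il6ra fell by 0.64 and 0.63. The IGF-binding proteins Igfbp5 and Igfbp7 rose by 0.82 and 0.59.

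**Figure D3:**
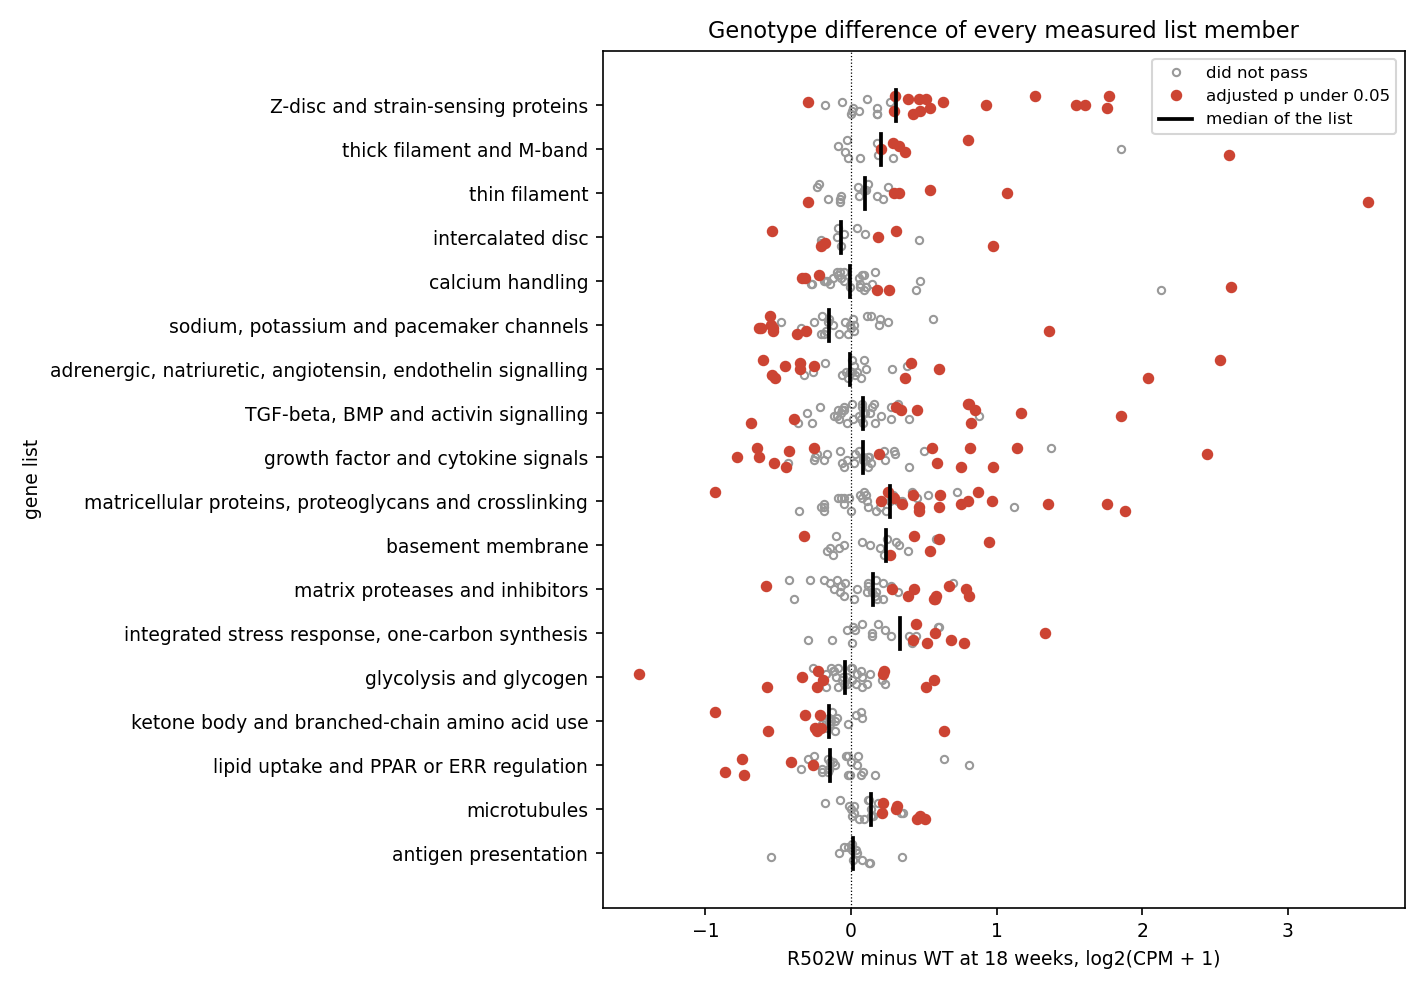
Difference between R502W and WT hearts at 18 weeks on the scale of log2(CPM + 1) for every measured member of 18 gene lists; filled points passed limma at an adjusted p under 0.05, open points did not, and each bar is the median of the list. Z-disc genes lie mostly to the right (median 0.31), channel, lipid and ketone genes mostly to the left (medians of -0.15), and none of 13 antigen presentation genes passed.

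Among matrix genes, of 47 matricellular proteins, proteoglycans and crosslinking enzymes 16 rose and 1 fell, with a median of 0.27. Cilp, a matrix protein made by activated cardiac fibroblasts, was at 8.28, 10.5, 11.0 and 4.75 in WT and at 33.6, 27.8, 24.3 and 53.4 in R502W (3.69-fold, limma adjusted p = 2.87e-05). Thbs4, a calcium-binding matrix glycoprotein, was at 3.54, 6.59, 2.92 and 3.66 in WT and at 16.2, 14.7, 11.4 and 23.8 in R502W (3.38-fold, limma adjusted p = 0.000974). The small proteoglycans Lum and Bgn rose by 0.61 and 0.61, and periostin, Postn, by 0.76. Emilin2, an elastic-fibre glycoprotein, went the other way, from 48.5, 36.9, 46.6 and 42.0 in WT to 23.8, 23.0, 22.7 and 19.3 in R502W, a fall of 0.94 (limma adjusted p = 3.38e-07). The count of rises was 8 without R502W sample 4 and 10 without R502W sample 1, that of falls 2 without R502W sample 2 and 3 without WT sample 2, and 7 rises held in all 30 alternatives. With the atrial covariate 10 rose and 1 fell.

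Basement membrane genes rose in 5 of 22 cases and fell in 1, the laminin chain Lama5 (-0.33). The rises included the collagen chain Col4a3 (0.60). The rises numbered 2 without R502W sample 4 or WT sample 1, 3 without R502W sample 3 or WT sample 2, and 9 without WT sample 3. The fall was lost without R502W sample 1 or 3 or WT sample 1 or 4, and 2 fell without WT sample 2. Of 36 matrix proteases and inhibitors 9 rose and 1 fell, or 3 and 1 without R502W sample 4, 5 and 1 without WT sample 1, 9 and 2 without WT sample 2, and 6 and 2 without WT sample 4. With the atrial covariate 4 rose and 1 fell. Mmp2, a gelatinase, rose by 0.57 and the metalloprotease Adam19 by 0.79, while Adamts7 fell by 0.58. Markers of fibroblasts moved with these genes. The summed level of 15 fibroblast markers was 1847 to 1969 in WT and 2084 to 2371 in R502W, with 3 members higher, 0 lower and a median of 0.21 (5 higher without R502W sample 2, 2 higher and 1 lower without WT sample 4). Of 11 measured markers of activated fibroblasts 6 rose, among them Col8a1 (0.99) and Meox1 (0.70), and their sum was 131 to 209 in WT and 219 to 336 in R502W. The share called was 20% of fibroblast and 54.5% of activated fibroblast markers, against 10.7% of all genes. Lum, Cilp, Thbs4 and Postn stand in these marker lists as well. The part of fibroblast number in the matrix genes was not tested.

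In the list of lipid uptake and PPAR or ERR regulation 5 of 29 genes fell, none rose and the median was -0.15. Ppara, the nuclear receptor that drives cardiac fat oxidation (chromosome 15, 85734983 to 85802819, plus strand), was at 50.6, 49.96, 43.3 and 36.7 in WT and at 29.1, 27.2, 21.4 and 28.0 in R502W. It fell by 0.75 (SE 0.11, limma adjusted p = 0.000241), with no overlap. Its coactivator Ppargc1a, a promoter of mitochondrial biogenesis (chromosome 5, 51454250 to 51567726, minus strand), was at 257, 244, 140.0 and 132 in WT and at 115, 108, 99.96 and 83.6 in R502W. WT samples 1 and 2 were far above WT samples 3 and 4, which exceeded the R502W libraries by less, and the fall was 0.86 (limma adjusted p = 0.00455). The fatty acid transporter Slc27a1 fell by 0.41. The acyl-CoA thioesterase Acot1, a target of Ppara, fell by 0.73, a call lost without R502W sample 3, R502W sample 4 or WT sample 4 (limma adjusted p up to 0.0655). The list kept 3 falls without R502W sample 4.

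Ketone body and branched-chain amino acid genes fell in 7 of 22 cases and rose in 1, with a median of -0.15. Bdh1, which oxidises the ketone body beta-hydroxybutyrate, rose by 0.64, a call lost without R502W sample 4 (limma adjusted p = 0.0503). In branched-chain amino acid breakdown, the phosphatase that activates its key dehydrogenase, Ppm1k, was at 129, 144, 114 and 149.8 in WT and at 84.4, 104, 96.7 and 74.8 in R502W and fell by 0.57 (limma adjusted p = 0.000716). The dehydrogenase subunit Bckdhb fell by 0.31. The falls of the list numbered 4 without R502W sample 1, R502W sample 4 or WT sample 4.

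Glycolysis and glycogen genes rose in 4 of 36 cases and fell in 6. Pfkfb1, an isoform of the enzyme that sets fructose 2,6-bisphosphate, was at 18.0, 14.6, 13.4 and 15.7 in WT and at 6.38, 6.29, 4.92 and 2.96 in R502W, a fall of 1.45 (limma adjusted p = 6.30e-05). The muscle glycogen-targeting subunit Ppp1r3a fell by 0.58, the muscle enolase Eno3 by 0.34 and hexokinase 2, Hk2, by 0.20. The platelet-type phosphofructokinase Pfkp rose by 0.57 and Ugp2, which makes UDP-glucose for glycogen, by 0.51. The rises of the list numbered 2 without R502W sample 1, WT sample 1 or WT sample 2.

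**Figure D4:**
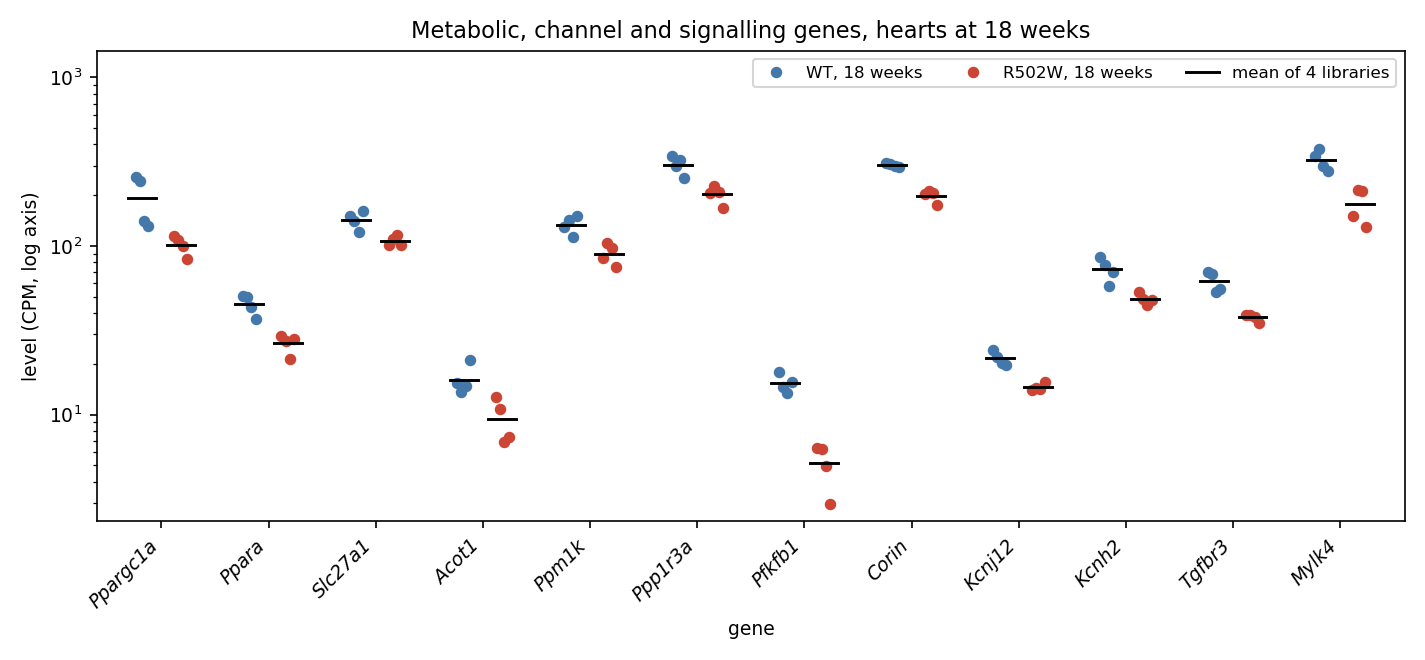
Levels in CPM (log axis) of 12 genes that fell, in the 4 WT and 4 R502W hearts at 18 weeks, each point 1 library and each bar the mean of 4. For Corin and Pfkfb1 the gap between genotypes is wide beside the spread within them, whereas the 4 WT values of Ppargc1a form 2 pairs, at 244 to 257 and 132 to 140.

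Genes of the integrated stress response and of serine and one-carbon synthesis rose in 7 of 24 cases and fell in none. Their median, 0.33, was the largest of the functional lists, which were written with earlier results of these data known. Mthfd2, a mitochondrial one-carbon enzyme, had 28, 78, 49 and 39 reads in the WT libraries and 157, 104, 135 and 218 in the R502W libraries, and rose 2.51-fold (limma adjusted p = 6.30e-05). The stress transcription factor Atf5 (0.58), the amino acid transporter Slc7a5 (0.77), the proline-synthesis enzyme Aldh18a1 (0.52), the translation repressor Eif4ebp1 (0.43) and Ppp1r15a (0.44), which restores translation, rose too. Of 21 folding genes of the endoplasmic reticulum 0 rose and 1 fell, Herpud1 (-0.42), a call that was lost without R502W sample 1, R502W sample 4, WT sample 1 or WT sample 2. The share of folding genes called was 4.76%, against 10.7% of all genes.

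Microtubule genes rose in 7 of 24 cases and fell in none, with a median of 0.14. The kinesin heavy chain Kif5b, which carries cargo along microtubules, was at 225, 216, 236 and 217 in WT and at 296, 304, 311 and 316 in R502W, a rise of 0.46 (SE 0.05, limma adjusted p = 1.64e-05). The microtubule-binding proteins Map4 and Mapre2 rose by 0.31 and 0.32. The rises numbered 3 without R502W sample 1, R502W sample 4 or WT sample 4 and 4 without WT sample 1, and 1 gene fell without WT sample 2. In the list of atrophy ligases, autophagy and lysosome 1 of 25 rose, the autophagy receptor Sqstm1 (0.26), a call lost without R502W sample 3 or 4 or WT sample 1 or 2, while 2 rose without R502W sample 2. The 2 that fell were the transcription factor Foxo3 by 0.49 and the ubiquitin ligase subunit Fbxo31 by 0.28. Of 19 RNA-processing factors of muscle 2 fell, the splicing regulators Rbfox1 (-0.43) and Mbnl2 (-0.24), and 1 rose without R502W sample 1. The share called was 10.5% among these factors and 12% in the atrophy, autophagy and lysosome list, against 10.7% of all genes.

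In the remaining lists the share of genes called ran from 30.8% in creatine and adenylate transfer, 21.7% in complement and coagulation, 20.7% in oxidant defence and 18.8% in chemokines to 9.52% in growth control and 0 in antigen presentation, against 10.7% of all genes. Many of these calls moved with single libraries. Creatine and adenylate transfer had 1 rise and 3 falls among 13 genes: the creatine transporter Slc6a8 rose by 0.23 and the adenylate kinase Ak4 fell by 0.45, while 1 fall was left without R502W sample 1, 2 or 4 or WT sample 1, 2 or 4, and 2 genes rose without R502W sample 2. Oxidant defence and production had 2 rises and 4 falls among 29, with Nqo1, a quinone reductase, at 0.40, the monoamine oxidase Maob at -0.51 and the mitochondrial superoxide dismutase Sod2 at -0.22. It had 2 falls without R502W sample 4 or WT sample 1 and 1 rise without R502W sample 1 or 4. Complement and coagulation had 2 rises and 3 falls among 23, with the thrombin receptor F2r at 0.52, clusterin, Clu, at 0.39, the coagulation factor F13a1 at -0.46 and Tfpi, an inhibitor of the clotting cascade, at -0.34. Chemokines, cytokines and adhesion had 2 rises and 4 falls among 32, with the scavenger receptor Ackr3 at 0.93 and the chemokines Cxcl14 at -0.74 and Ccl11 at -0.81, and 1 rise without R502W sample 1, 3 or 4 or WT sample 1 or 2. Growth control had 2 rises among 21, the transcription factor Myc (1.07) and the polyamine enzyme Odc1 (0.23), with 1 rise without R502W sample 3 or WT sample 1 and 1 fall without WT sample 2. The call of Odc1 was lost without R502W sample 2 or 3 or WT sample 1 (limma adjusted p up to 0.0818). None of 13 antigen presentation genes passed.

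The cell cycle list had 1 rise, the cyclin Ccnd2 (0.27), and 3 falls among 37 genes. The share called was 10.8%, against 10.7% of all genes. There was 1 more rise without R502W sample 1 or WT sample 2, none without R502W sample 4 and 3 without WT sample 3, and 2 falls without R502W sample 1 or WT sample 3. Cenpf, a kinetochore protein of dividing cells, fell most in this list. It was at 49.8, 28.2, 63.3 and 68.9 in WT and at 18.3, 29.2, 13.4 and 10.01 in R502W, a fall of 1.54 (limma adjusted p = 0.000963), with WT sample 2 inside the R502W range. The cell-cycle inhibitor Cdkn1b fell by 0.24 and the kinase Cdk6 by 0.33, and the median of the list was 0.18. The call of Cdk6 was lost in 7 of the 30 alternatives, among them those without R502W sample 1 or 3 or WT sample 2 or 3 (limma adjusted p up to 0.0896). In the interferon list 1 of 28 genes (3.57%) fell, Mx2 (-0.70), at 2.09 to 2.46 in WT and 0.549 to 1.30 in R502W, and 3 fell without R502W sample 2 and 2 without R502W sample 4. Of 19 clock genes Arntl rose (0.62) and Cry2 and Hlf were lower (-0.27 and -0.50). Of 11 imprinted growth genes Grb10 rose (0.21) and Rian was lower (-0.48). Each of these 5 calls was lost in at least 1 of the 30 alternatives, and none of them held without R502W sample 4. The share called was 15.8% of clock and 18.2% of imprinted growth genes, against 10.7% of all genes.

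Calls among endothelial, lymphatic and immune cell markers depended on single libraries. The share called was 11.1% of endothelial, 14.3% of macrophage, 28.6% of lymphatic and 25% of lymphocyte markers, against 10.7% of all genes. Among 18 endothelial markers Emcn was higher (0.29) and Flt1 lower (-0.25), and among 7 lymphatic markers Ccl21a was higher (0.48) and Lyve1 lower (-0.73). Lyve1, Cd163 (-0.54) and Itgam (-0.69) were the 3 falls among 21 macrophage markers, and Ighm (1.20) was the 1 rise among 4 lymphocyte markers. The falls among macrophage markers numbered 0 without R502W sample 4, WT sample 1 or WT sample 2, 1 without R502W sample 1, R502W sample 3 or WT sample 3, and 4 without WT sample 4. No endothelial marker was called without R502W sample 1, 2 or 3 or WT sample 1, no lymphatic marker without R502W sample 3 or 4 or WT sample 1 or 2, and no lymphocyte marker without R502W sample 2 or 4 or WT sample 1, 2 or 4. Without WT sample 3, 3 endothelial markers were higher. No marker of the conduction system, neutrophils and mast cells, Schwann cells, epicardium, skeletal muscle, adipocytes or erythroid cells passed, although the summed level of 6 adipocyte markers reached 46.8 in R502W against 22.2 at most in WT. The summed level of 5 erythroid markers was 305 to 638 in WT and 211 to 273 in R502W. Of these 5, 2 were called lower with the atrial covariate and with only the 8 libraries at 18 weeks. The same count was lower without WT sample 2 at 18 weeks and R502W sample 1 at 3 weeks. A conduction marker was called lower without R502W sample 2, WT sample 2 or WT sample 4, and a marker of neutrophils and mast cells without WT sample 4.

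Among the 20 largest falls several genes had a role outside the lists. Sorcs2, a sorting receptor for neurotrophin precursors (chromosome 5, 36017180 to 36398139, minus strand), was at 26.3, 13.9, 18.5 and 22.7 in WT and at 9.72, 10.9, 5.69 and 6.18 in R502W (2.35-fold lower in R502W, limma adjusted p = 0.000184). Wnk2, a kinase that regulates chloride cotransporters, fell 1.73-fold, with levels of 77.9 to 98.7 in WT and 46.5 to 53.9 in R502W. Pik3r1, the regulatory subunit of the insulin-responsive phosphoinositide 3-kinase, fell 1.78-fold, with levels of 149.9 to 254 in WT and 101 to 127 in R502W.

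The secreted phospholipase Pla2g5 fell 1.93-fold, the inositol pyrophosphate kinase Ppip5k2 1.87-fold, the lectin Lgals4 1.70-fold and the phospholipid scramblase Ano10 1.67-fold. Klhl33 and Tmem82 fell 1.75-fold and 1.75-fold. Scd4, a stearoyl-CoA desaturase, fell 1.90-fold, a call lost with a robust spread and without R502W sample 3, WT sample 1 or WT sample 3 (limma adjusted p up to 0.0789), and reads may be shared among its paralogues. The methyl-DNA-binding protein Mbd1 was at 112, 97.8, 91.2 and 46.8 in WT and at 39.8, 40.8, 46.4 and 41.2 in R502W, where WT sample 4 was closer to the R502W libraries than to the other WT libraries. The zinc-finger gene Zfp970, of a family with near-identical copies, was at 85.3, 67.0, 76.1 and 53.1 in WT and at 33.7, 45.9, 38.1 and 28.6 in R502W. Among the rises outside the lists were those of B3galt2, a galactosyltransferase (3.63-fold), the deubiquitinase Otud1 (2.69-fold) and the centrosomal protein Lrrcc1 (2.49-fold, with levels of 8.95 to 12.98 in WT and 25.8 to 30.2 in R502W).

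Whether the genotype effect at 18 weeks differed from that at 3 weeks was tested by the interaction of genotype and age, for which no library is shared between the effects. It was called for 11 genes, 0.078% of those tested, with 1496 genes at an unadjusted p under 0.05. The sign at 3 weeks was that at 18 weeks for 1339 of the 1509 called genes (88.7%), and 464 were called at both ages, where 6.43% of all genes were called at 3 weeks. Acta1 was at 72.2, 99.2, 84.3 and 123 in WT and at 324, 399.7, 323 and 248 in R502W at 3 weeks. Its genotype effect grew from 1.77 to 3.55 (difference 1.78, SE 0.30, limma adjusted p = 0.0283). Fgf6 grew by 1.74 and Gdf15 by 1.496. The Z-disc gene Myot and its fellow actin-binding gene Abra grew by 1.07 and 1.09, and the innate immune regulator Nlrc3, Vgll2, Kcnc1 and Lrrcc1 by 1.57, 1.45, 1.13 and 1.07. The predicted genes Gm49405 and Gm38394 had effects of -0.74 and -0.57 at 18 weeks and of 0.14 and 0.04 at 3 weeks, with differences of -0.89 and -0.61. They span Doc2g and Nudt8 and Zc3h11a on the same strand, so the split of reads between them is uncertain.

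These 11 calls were not stable. The edgeR test on the recovered reads called 0 genes for the interaction, with 1475 at an unadjusted p under 0.05, and DESeq2 called 106. The count was 0 without WT sample 1 at 18 weeks, without WT sample 3 at 3 weeks and without R502W sample 3 at 3 weeks, and 82 without WT sample 4 at 18 weeks. The difference of the Myh7 effect between ages was 1.61 and did not pass (limma adjusted p = 0.328). Ppara, at 19.8, 21.0, 25.9 and 26.4 in WT and at 24.3, 22.7, 21.3 and 24.0 in R502W at 3 weeks, overlapped between the genotypes there, against a difference of -0.75 at 18 weeks, and the change between ages did not pass either (limma adjusted p = 0.0918). Mylk4 (-0.02 at 3 weeks) and Ppargc1a (0.21) were likewise near 0 or above it in the young heart, with differences of -0.86 and -1.07 that did not pass (limma adjusted p = 0.124 and 0.128).

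**Figure D5:**
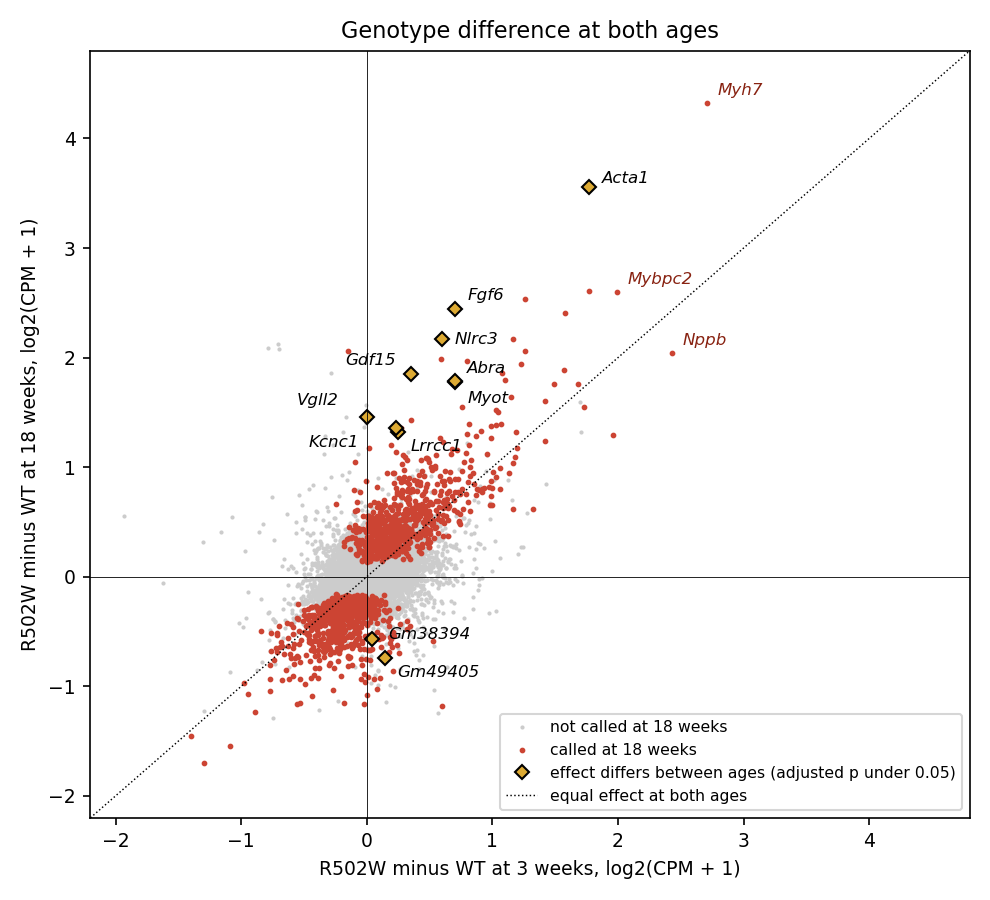
Genotype difference of every gene at 3 weeks (horizontal) and at 18 weeks (vertical), both R502W minus WT on the scale of log2(CPM + 1). Diamonds mark the 11 genes whose effect differed between the ages by limma, and the dotted line marks equal effects. Myh7 and Acta1 lie above the line at 2.71 and 1.77 against 4.32 and 3.55, and Nppb below it.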

How the data were processed

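RNA of hearts was sequenced in 16 libraries (4 R502W and 4 WT at each of 3 and 18 weeks). The submitters' processing notes name cutadapt, FastQC, RSEM, limma and GRCm38 without versions, and the step that made the table is not given in the sources used here. The deposited values are a linear signal per gene in CPM, that is, reads scaled to an adjusted size of the library. Multiplying by one factor per library gave whole reads plus 0.5 for 100% of values within 0.01 reads, so the authors' signal was a read count plus 0.5 over a scaled library size. That size matched the reads times the TMM factor (edgeR's scaling factor) computed here from the recovered reads. For WT sample 2 at 18 weeks these were 19868366 reads, a factor of 1.073 and a scaled size of 2.13e+07. Libraries at 18 weeks held 19273683 to 23857089 reads, and the number of libraries limits the precision more than counting error does.

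Here log2(CPM + 1) was fitted in limma 3.58.1 (R 4.3.3) with a mean per group over all 16 libraries and a mean-variance trend. Contrasts were R502W minus WT at 18 weeks and the interaction with age, adjusted by Benjamini and Hochberg over 14109 genes. Shares were compared by an exact two-sided permutation test. In simulated reads of 14109 genes, 67, 67 and 66 genes with a mean of at least 1 CPM were changed 1.5-, 2- and 4-fold in R502W at 18 weeks. Of these changes 68.7%, 89.6% and 93.9% were recovered by the 18-week contrast. The interaction with age was called for fewer of the same genes, 41.8%, 82.1% and 89.4%. The simulated reads were drawn independently for each gene, with no age effect and no atrial differences between libraries. Alternatives used other pseudocounts, filters, scalings, spread estimates, libraries, edgeR 4.0.16 and DESeq2 1.42.0 on recovered reads. The gene lists and members were chosen with earlier results of these data known. Named were Mybpc3, the 20 largest rises and falls (called, above the median level, no overlap, established symbol), the largest interaction differences, up to 6 members per list by adjusted p, and myofilament genes. Some genes this rule selects are not reported here. Same-numbered libraries deviated together with correlations of 0.09, -0.07, -0.07 and 0.02, so the numbers were not used to pair samples.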

Additional observations from a re-analysis of the deposited data

Results flagged for a closer look

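In 12 of 372 groups of 4 libraries (186 named genes in both genotypes at 18 weeks, 3.23%) 1 library lay apart from the other 3 by Dixon's criterion on log2(CPM + 1). In independent groups chance alone reaches it in about 5%. The genes were mostly chosen by their calls and share the same libraries, so the 2 rates cannot be compared strictly. WT sample 2 was low for Enah (128 against 142 to 145), Des (1082 against 1351 to 1408) and Actn2 (1359 against 1657 to 1662). R502W sample 2 was low for Des (1705 against 1832 to 1856), Abra (99.8 against 153 to 167) and Hbegf (23.6 against 29.2 to 29.8) and high for B3galt2 (44.9 against 35.7 to 36.5). R502W sample 4 was high for Ccn1 (104 against 68.8 to 72.4) and low for Tpm1 (4882 against 5404 to 5467). WT sample 4 was high for Tnnt2 (6081 against 5648 to 5664) and low for Cd163 (21.3 against 36.3 to 38.5). WT sample 3 was low for Sod2 (558 against 585 to 588).

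The genotype effect at 18 weeks differed from that at 3 weeks, by limma's interaction term, for 11 genes. The effect was larger at 18 weeks for Acta1 (by 1.78), Fgf6 (1.74), Nlrc3 (1.57), Gdf15 (1.496), Vgll2 (1.45), Kcnc1 (1.13), Abra (1.09), Myot (1.07) and Lrrcc1 (1.07). It went from slightly above 0 to below 0 for Gm49405 (by -0.89) and Gm38394 (by -0.61).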

How the results depend on the processing

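Of the 1509 genes called, 730 (420 higher, 310 lower) held their call and direction in all 30 alternatives, as did 144 of the 175 called genes named here. Fitting only the 8 libraries at 18 weeks called 951 genes (522 higher, 429 lower). With the atrial covariate 1238 genes were called (680 higher, 558 lower), and 424 of the 1509 calls were lost. Leaving out 1 library gave 934 to 1497 called genes, 515 to 805 higher and 419 to 710 lower, with the lowest counts without R502W sample 4, and 447 lower without WT sample 1. The test of the difference between ages called 106 genes with DESeq2, 28 with the atrial covariate, 25 with a pseudocount of 4, 21 with library weights, 4 without a trend, and 0 with edgeR or a pseudocount of 0.25, and 0 to 82 when 1 library was left out. With the replicate block 1336 genes were called at 18 weeks and 0 for the interaction, and the shares of Myh7 and Acta1, with differences of 7.38 and 17.1 percentage points, had an adjusted p of 0.125, the smallest that exact sign flips of 4 pairs can give. Signs turned for Myl2 (-0.025 to 0.109 when 1 library was left out, with -0.025 without WT sample 2, also together with R502W sample 1 of 3 weeks), Myl7 (-0.18 with the atrial covariate, of which it is a part) and Tpm1 (0.22 under quantile normalization). The cause of these changes was not tested, and where libraries were left out the fits also had fewer libraries. Changes of 1.5-fold were recovered less often than larger ones in the simulation, and genes under 1 CPM rest on few reads.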

Other observations

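Some genes with large changes stood outside the lists or below the median level and were chosen after their values were seen. Edn3, which encodes the peptide hormone endothelin 3, had 26, 38, 22 and 32 reads in the WT hearts and 257, 193, 176 and 416 in the R502W hearts, and its levels did not overlap (1.05 to 1.81 against 9.70 to 17.0, log2 2.40, limma adjusted p = 9.90e-08). Nlrc3, an intracellular regulator of innate immunity, had 42, 71, 63 and 41 and 340, 211, 228 and 580 reads, or 2.07 to 3.35 against 10.8 to 23.7 (log2 2.17, limma adjusted p = 4.63e-07). Aqp4, a water channel, went the other way, with 194, 103, 151 and 206 reads in WT and 49, 60, 13 and 28 in R502W (log2 -1.70, limma adjusted p = 0.000207).

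A pair of genes that glucocorticoids induce varied widely within the WT group. Fkbp5, a co-chaperone of steroid receptors, was at 64.4, 61.2, 29.6 and 16.7 in WT samples 1 to 4 and at 18.7, 12.2, 17.2 and 17.6 in R502W samples 1 to 4. The transcription factor Zbtb16 was at 194, 191, 139 and 58.8 and at 73.0, 63.1, 65.1 and 57.7. WT samples 1 and 2 were high for both and WT sample 4 lay within or next to the R502W range. Both were called (limma adjusted p = 0.0202 and 0.0318), but the call of Fkbp5 was lost in 6 and that of Zbtb16 in 10 of the 30 alternatives, among them those without R502W sample 2, WT sample 1 or WT sample 2.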
